A study of Mus musculus with 14 samples.

Results

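The transcripts described here encode the proteins of the cytosolic ribosome. Members were all listed transcripts whose mouse gene symbol is Rpl or Rps followed by a number and at most 1 letter, or is Rplp0, Rplp1, Rplp2 or Rpsa; pseudogene names, the S6 kinases and the mitochondrial ribosome were left out. There were 50 such transcripts from 50 genes, 32 of the large subunit and 18 of the small one, among the 1399 transcripts listed for each library, all of which have at least 1 count in every library. The gene annotation holds 80 protein-coding genes that fit the rule, and the other genes are not analysed here. Rps3a1, which ends in a digit after its letter, fell outside the rule, and its values are given separately.

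The cells were MEF cells (mouse embryonic fibroblasts), labelled wild type in every group, with 2 libraries of polyadenylated RNA in each of 7 groups. One set of files, whose column headings carry the prefix mRNA_, holds untreated cells (NT), cells under cysteine starvation and cells under full amino acid starvation. The other set, without that prefix, holds untreated cells (NT2), cells given cysteamine (spelled "cysteamina" in the labels), cells transfected with sh-CTNS (CTNS-KD), and cells transfected with sh-CTNS plus a CTNS plasmid (CTNS-KD-rescue). The labels do not say which untreated group is the control of which treatment; NT was set against the starvations and NT2 against the other groups on the strength of these headings alone. No dose, duration or origin of the MEF cells is given, and no group received a control hairpin, so in a comparison with NT2 the knockdown and the transfection cannot be told apart. Ctns was not among the listed transcripts, so the knockdown and its rescue were not checked on the targeted gene.

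A ribosome joins one copy of most of these proteins to ribosomal RNA, so cells make them in balanced amounts. Their mRNAs begin with a run of pyrimidines, the TOP motif, through which the kinase mTOR and the protein Larp1 set their translation and stability when amino acids are scarce. CTNS encodes cystinosin, the lysosome's exporter of cystine. Cysteamine is a drug that depletes lysosomes of cystine and is given to patients who lack cystinosin. In fibroblasts, ribosomal protein mRNAs are among the most abundant of all messages.

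With cysteamine all 50 members lay above NT2, as did 59.2% of all transcripts, and 6 were higher by the test, as were 5.5% of all transcripts. After CTNS knockdown 46 of 50 lay below NT2, against 629 of all 1399 transcripts. By the test 9 were lower, against 13.2% of all transcripts. With the added plasmid 44 of 50 lay below, against 704 of all 1399 transcripts. By the test 20 were lower, against 12.9% of all transcripts. Under cysteine starvation 42 of 50 lay above NT, against 50.8% of all transcripts. Under amino acid starvation 36 did, against 57.5% of all transcripts. No transcript of any kind passed in either starvation (0.0%). Passing means an adjusted p under 0.05 by edgeR (quasi-likelihood), adjusted by Benjamini and Hochberg's method over all 1399 transcripts. The labels do not say whether the 2 libraries of a group are separate cultures, so p-values measure the spread between libraries, which may be technical.

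For the members that passed with the largest changes, and for a pair of members highest after knockdown, 30 bases at or near the annotated start are shown, since these mRNAs are known for a pyrimidine run at their start. Sequences are those of RefSeq on build GRCm38.p6, printed along the gene's own strand. Capitals mark the longest run that opens with C and goes on with C or T, searched on the gene's strand within 30 bases before to 50 after the start; runs under 7 bases are left in lower case. The first 3 had the lowest fold changes of the passing members after knockdown, the next 2 the highest fold changes of all members after knockdown, and the last 3 the highest of the passing members with cysteamine, among members with a single promoter in the table.
Rpl36a: ggctctagCCTCTCTCTTTCCgagctgcta
Rpl12: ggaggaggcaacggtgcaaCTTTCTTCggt
Rpl6: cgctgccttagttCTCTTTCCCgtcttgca
Rpl5: tacagccaCTCTTTCTCacgtcgcttgcgt
Rps10: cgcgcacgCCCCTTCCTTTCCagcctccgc
Rpl27: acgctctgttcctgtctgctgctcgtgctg
Rps25: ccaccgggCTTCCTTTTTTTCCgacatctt
Rps6: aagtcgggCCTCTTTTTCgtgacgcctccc

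The Rpl36a bases lie at chrX:134585673-134585702 on the plus strand. Those of Rpl12 lie at chr2:32961732-32961761, plus strand. The Rpl6 and Rpl5 bases lie on the plus strand at chr5:121204521-121204550 and chr5:107900500-107900529. The Rps10 bases lie at chr17:27635226-27635255 on the minus strand. Rpl27 is shown at chr11:101442230-101442259 and Rps25 at chr9:44407684-44407713, both on the plus strand, and Rps6 at chr4:86857347-86857376 on the minus strand. The run was 13 bases long in Rpl36a, 8 in Rpl12, 9 in Rpl6, 9 in Rpl5, 13 in Rps10, 14 in Rps25 and 10 in Rps6, and the longest in Rpl27 was 4 bases. Counted from the annotated start, the first base of the run was at 28 in Rpl36a, 40 in Rpl12 and 34 in Rpl6, at -20 in Rpl5 and -3 in Rps10, and at -22 in Rps25 and -1 in Rps6. None opened at the annotated start itself, so the capitals are runs of letters and not located TOP motifs. A match is a description of these letters and not a mapped start.

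RefSeq promoters were found for 38 of the 50 members, in 46 windows. A C followed by at least 6 C or T stood near the start in 73.9% of the members' windows and in 33.4% of all 32851 windows of the same length. In the whole 300-base windows, read on both strands, GGAAG (core letters of ETS-family sites) was found in 91.3% of member windows against 71.4% of all. AAGATGG, the core of the YY1 site, was found in 17.4% against 6.34%, CTTTCC in 56.5% against 26.6%, and the TATA box letters TATAAA in 8.7% against 13.6%. CTTTCC can lie within the pyrimidine run, and it can overlap GGAAG at their ends when the strands differ.

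Total counts per library ran from 25697 to 51224 in the first set and from 64530 to 165747 in the second. The 2 libraries of every group differed beyond counting noise over all transcripts, with a chi-square per degree of freedom between 1.55 and 4.55, so all 14 were kept as separate libraries. Over the members alone, set against their own summed counts in each library, it was 0.90 to 1.14 in 5 groups. It was 1.59 under cysteine starvation and 1.93 in NT2. This member value covers the proportions among members and not their summed level, which was 2.41% and 0.665% of the counts in the NT libraries. The transcripts of Luc7l2, Pigl and Pglyrp3 (the 3 with the most counts) held between 3.29% and 54.53% of a library's counts, with group means of 45.3% in NT, 26.8% under cysteine starvation, 41.9% under amino acid starvation, 3.39% in NT2, 7.85% with cysteamine, 15.9% after knockdown and 19.8% with the plasmid. The members' depth differed likewise: the median member had 3 to 34 counts in a library of the first set and 36.5 to 204.5 in the second. In NT replicate 2 only 171 counts fell on members, and 35 of the 50 had 3 counts or fewer.

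Members took the largest share of the counts in the cysteamine libraries and the smallest of the second set in the plasmid libraries. Their share of listed counts was 8.62% (95% exact binomial interval 8.47 to 8.77) and 8.85% (8.71 to 8.99) with cysteamine. It was 7.09% (6.97 to 7.21) and 7.22% (7.08 to 7.36) in NT2, 4.92% (4.79 to 5.06) and 4.94% (4.79 to 5.09) after knockdown, and 3.96% (3.84 to 4.09) and 4.13% (3.98 to 4.29) with the plasmid. These 4 groups did not overlap, and the intervals cover counting error only. With the 3 abundant transcripts taken out, the group means were 9.48% with cysteamine, 7.40% in NT2, 5.86% after knockdown and 5.05% with the plasmid, in the same order.

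In the first set the members' share was 2.41% and 0.665% in NT, 4.20% and 3.04% under cysteine starvation, and 1.06% and 1.70% under amino acid starvation. The cysteine-starved libraries lay above the other 4, while NT and amino acid starvation overlapped. With the 3 abundant transcripts taken out, the shares were 3.77% and 1.46% in NT, 5.28% and 4.54% under cysteine starvation, and 1.81% and 2.96% under amino acid starvation, with the cysteine-starved libraries again above the other 4. With 2 libraries against 2, the smallest two-sided p an exact permutation test allows is 0.333, so no share was tested. A share can also move with the counts of the other transcripts, and it does not give the amount of RNA per cell.

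**Figure D1:**
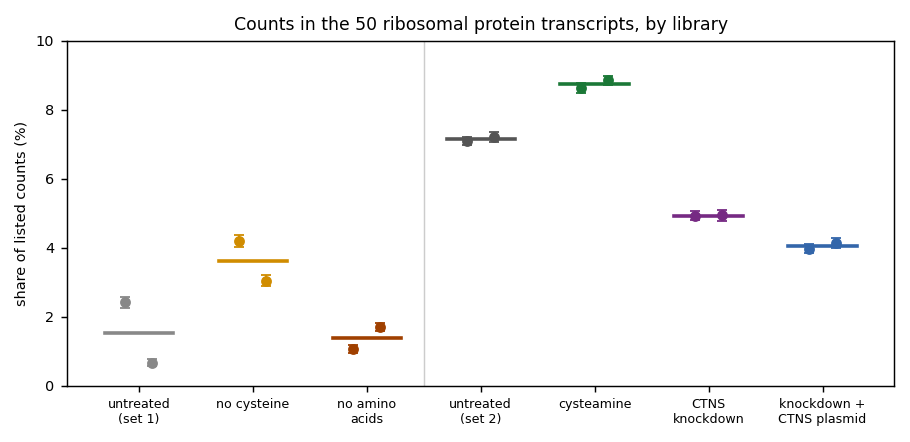
Share of listed counts, in percent, that fell on the 50 ribosomal protein transcripts in each library (points, with 95% exact binomial intervals) and the group mean (lines). The cysteamine libraries lie highest, at 8.62% and 8.85%, and the first set lies between 0.665% and 4.20%, or 1.46% and 5.28% with the 3 abundant transcripts taken out.

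The members differed widely in level, and their order held across groups. Per length, as TPM computed here over the listed transcripts, Rpl41, the smallest ribosomal protein, was highest in NT2 at 20110 ± 3603 (SD, n = 2), followed by Rpl23a at 16310 ± 104.6. Rps2, which lines the mRNA entry channel, had 9177 ± 627.3, Rpl26 8727 ± 635.0 and Rpl13 8135 ± 298.6. The lowest were Rps20, listed as an isoform of 3706 bases, at 444.2 ± 36.94, and Rpl18, listed as one of 2989 bases, at 647.2 ± 80.69. Rps2, Rpl26 and Rpl13 lie close together relative to their SDs, whereas Rpl41 over Rps20 was a ratio of 45.3 per length. That ratio includes the difference in listed length, 582 bases for Rpl41 and 3706 for Rps20. Without division by length the gap was narrower, with NT2 means of 2722 CPM (library-scaled counts) for Rpl41 and 383.0 for Rps20.

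The rank order of the 50 members per length gave a Spearman rho of 0.974 between the NT2 libraries, 0.988 between the means of NT2 and cysteamine, 0.942 between NT2 and knockdown, 0.916 between NT2 and plasmid, and 0.904 to 0.947 between NT2 and the 3 groups of the first set. These are descriptions over genes, which share length and base composition across libraries. By counts summed over the 14 libraries, Rpl41 (4151), Rpsa (3763), Rpl4 (3697), Rplp0 (3455) and Rps2 (3261) led, and Rps10 (385), Rps16 (450) and Rpl31 (460) were lowest. The large subunit held 63.2% to 71.4% of member counts in every library.

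Cysteamine against untreated cells of the same set (NT2) gave like values across the members. All 50 had a log2 fold change above 0, as had 59.2% of all 1399 transcripts. The members' median was 0.43, with a range from 0.15 to 0.71, while the median over all transcripts was 0.13. In 49 of 50 both cysteamine libraries exceeded both NT2 libraries, which 39.7% of all transcripts also did; the exception was Rps20. By the test 6 members rose, where 5.5% of all transcripts did. The SD of the fold changes among members was 0.13, and their mean standard error was 0.21. That standard error comes from the fit of all 14 libraries, so it also carries the spread of the first set. The medians were 0.42 for the large and 0.44 for the small subunit.

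Levels for single members are given as CPM (library-scaled counts with edgeR's TMM factors). Rpl27, a large-subunit protein, was at 518.6 and 576.1 in NT2 and at 869.9 and 916.2 with cysteamine, 1.63-fold higher on the fitted scale, a log2 fold change of 0.71 ± 0.17 (SE; adjusted p = 0.0167, edgeR). Rps25, a small-subunit protein used by some viral internal entry sites, was at 348.4 and 290.4 in NT2 and at 565.7 and 484.8 with cysteamine (0.70 ± 0.19, adjusted p = 0.0274). Rps6, the substrate of S6 kinase downstream of mTOR, was at 847.3 and 837.5 against 1318 and 1303 (0.64 ± 0.19, adjusted p = 0.0444). In each of the 3 the cysteamine libraries stood clear of NT2. Rps7 (0.61, adjusted p = 0.0424), Rps26 (0.59, adjusted p = 0.0469) and Rpl37a (0.58, adjusted p = 0.0439) completed the 6. Among the most abundant members Rpl41 had 0.64 ± 0.33 (adjusted p = 0.208), Rpl4 0.38 ± 0.24 (adjusted p = 0.309) and Rpsa 0.40 ± 0.29 (adjusted p = 0.39). Rpl3, of the large subunit, had 0.18 ± 0.25 (adjusted p = 0.685, edgeR).

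The count of 6 rested on all 4 libraries and did not hold with any 1 of them left out, although 49 or 50 members stayed above 0. Such a fit leaves a group with 1 library. The count was 30 when only the 8 libraries of the second set were fitted, where 375 transcripts passed against 147 in the fit of 14, and 17 with DESeq2.

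After CTNS knockdown most members lay below NT2, and 9 of them fell. The log2 fold change was below 0 in 46 of 50 members and in 629 of all 1399 transcripts. The members' median was -0.34 against 0.09 for all transcripts, with a range from -1.25 to 0.32. In 37 both knockdown libraries were below both NT2 libraries, which held for 31.6% of all transcripts. By the test 9 fell, 7 of the large subunit and 2 of the small one, where 13.2% of all transcripts fell. The members spread more than with cysteamine, with an SD of 0.30 and a mean standard error of 0.23.

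Rpl36a, a protein of the large subunit's exit site, was at 388.0 and 421.1 in NT2 and at 173.2 and 164.4 after knockdown, 2.38-fold lower on the fitted scale, a log2 fold change of -1.25 ± 0.32 (adjusted p = 0.00866, edgeR). Rpl12, at the base of the stalk where elongation factors bind, was at 1271 and 1292 against 610.1 and 730.6 (-0.94 ± 0.22, adjusted p = 0.0055). Rps27a, made as a fusion with ubiquitin, was at 522.6 and 639.0 against 361.6 and 255.7 (-0.89 ± 0.25, adjusted p = 0.0144). No knockdown library reached an NT2 library in any of the 3. Rpl7 (-0.86, adjusted p = 0.00728), Rpl36 (-0.84, adjusted p = 0.0131), Rpl6 (-0.83, adjusted p = 0.0495), Rpl7a (-0.74, adjusted p = 0.0204), Rps16 (-0.73, adjusted p = 0.0492) and Rpl26 (-0.57, adjusted p = 0.0435) were the other members that passed.

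At the other end, Rpl5, which joins Rpl11 in the complex that binds Mdm2, was at 1718 and 1786 in NT2 and at 2132 and 2238 after knockdown. Its log2 fold change was 0.32 ± 0.22 (adjusted p = 0.283), and both knockdown libraries lay above both of NT2. Rps10 behaved likewise, at 233.6 and 232.4 against 286.2 and 246.6 (0.20 ± 0.21, adjusted p = 0.523). Rps3 and Rpl4 were the other members above 0, at 0.05 and 0.01, and overlapped NT2. Rps6 (-0.35 ± 0.21, adjusted p = 0.218), Rpl3 (-0.50 ± 0.28, adjusted p = 0.177), Rpsa (-0.40 ± 0.30, adjusted p = 0.321) and Rplp0, the stalk protein (-0.42 ± 0.27, adjusted p = 0.25), lay below NT2 in both libraries without passing.

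The 9 calls became 2 without either knockdown library, and 3 without either NT2 library. They became 24 when only the second set was fitted, where 568 transcripts passed against 431, and the members' direction turned when the untreated cells of the first set were the control, with a median of 0.54 and 3 members higher.

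Adding the CTNS plasmid to the knockdown left the members below NT2. Of the 50, 44 had a log2 fold change below 0, as had 704 of all 1399 transcripts. The members' median was -0.52 against -0.01 over all transcripts, with a range from -1.64 to 0.22. In 39 both plasmid libraries were below both NT2 libraries, as in 34.4% of all transcripts. By the test 20 members fell, 11 of 32 in the large and 9 of 18 in the small subunit, where 12.9% of all transcripts fell. The members above 0 were Rpl4, Rpl24, Rpl28, Rplp1, Rps4x and Rps10.

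Rpl36a, Rps27a and Rpl12 were lowest. Rpl36a was at 132.7 and 123.9 (-1.64 ± 0.37, adjusted p = 0.00302), Rps27a at 293.8 and 136.2 (-1.37 ± 0.29, adjusted p = 0.00193) and Rpl12 at 568.7 and 433.5 (-1.34 ± 0.24, adjusted p = 0.000609), all against the NT2 levels given above. The plasmid libraries of Rps27a lay apart from each other, and both were below NT2. Rpl6 (-1.09), Rpl15 (-1.04) and Rps16 (-1.03) followed, and Rpl26 (-0.74), Rps7 (-0.73), Rps6 (-0.72), Rps15 (-0.70), Rps14 (-0.68) and Rpl7 (-0.62) were the 6 nearest to 0 that passed. The cysteamine, knockdown and plasmid comparisons all use the same NT2 libraries, so their calls are not independent of each other.

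Fewer than the 20 members passed when any 1 plasmid or NT2 library was left out, which leaves 1 library in a group. When only the second set was fitted 32 members passed. How many of all transcripts passed in these fits is not given here, so the changed counts are not results about the members alone. With the first set's untreated cells as control the median turned to 0.38.

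**Figure D2:**
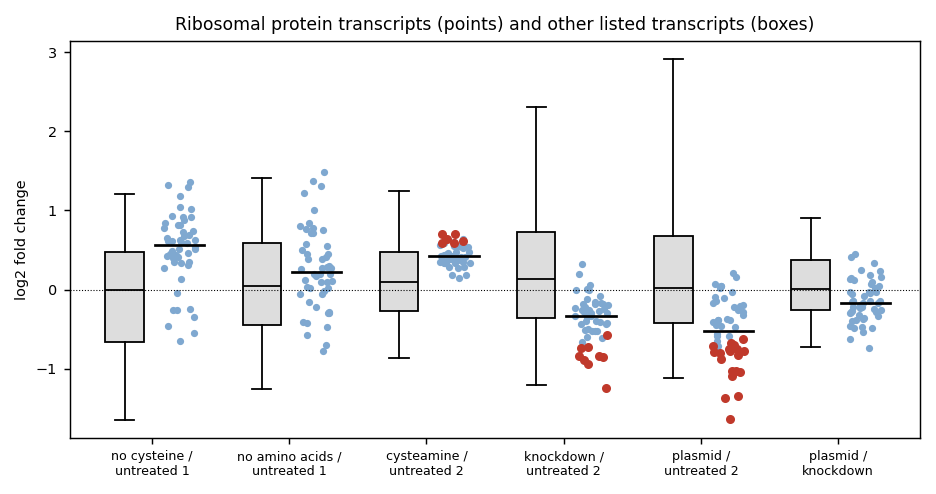
Log2 fold change of each of the 50 members (points, with their median as a line; red points passed the test) beside all other listed transcripts (boxes for the middle 50%, whiskers at the 5th and 95th percentile) in 6 comparisons. With cysteamine the members form a narrow group above 0 (SD 0.13), and after knockdown and with the plasmid they reach down to -1.25 and -1.64.

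Set directly against the knockdown, the plasmid changed no member by the test, where 0.643% of all 1399 transcripts passed. DESeq2 called 1 member, and 4 had an unadjusted p under 0.05 in edgeR, as did 154 of all 1399 transcripts. The median log2 fold change was -0.16 against 0.01 over all transcripts, and in 24 members both plasmid libraries were below both knockdown libraries, as in 23.7% of all transcripts. Rps7 was at 715.6 and 666.7 after knockdown and at 473.9 and 346.8 with the plasmid (-0.73 ± 0.23, adjusted p = 0.232, edgeR). Rps15 (-0.62) and Rpl15 (-0.53) lay next to it in order, and Rpl36 (0.46), Rplp1 (0.41) and Rps4x (0.34) were highest. Rpl5 was at 1640 and 1523 with the plasmid, below both knockdown libraries. A p above the threshold does not show that the groups were alike.

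Across the second set, 32 of 50 members (64%) had group means in the order cysteamine, NT2, knockdown, plasmid, an order that 146 of all 1399 transcripts (10.4%) had. In 49 of 50 members both cysteamine libraries exceeded all 4 knockdown and plasmid libraries, as in 25.8% of all transcripts. The order was seen in the same libraries that gave the comparisons above and is a description.

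**Figure D3:**
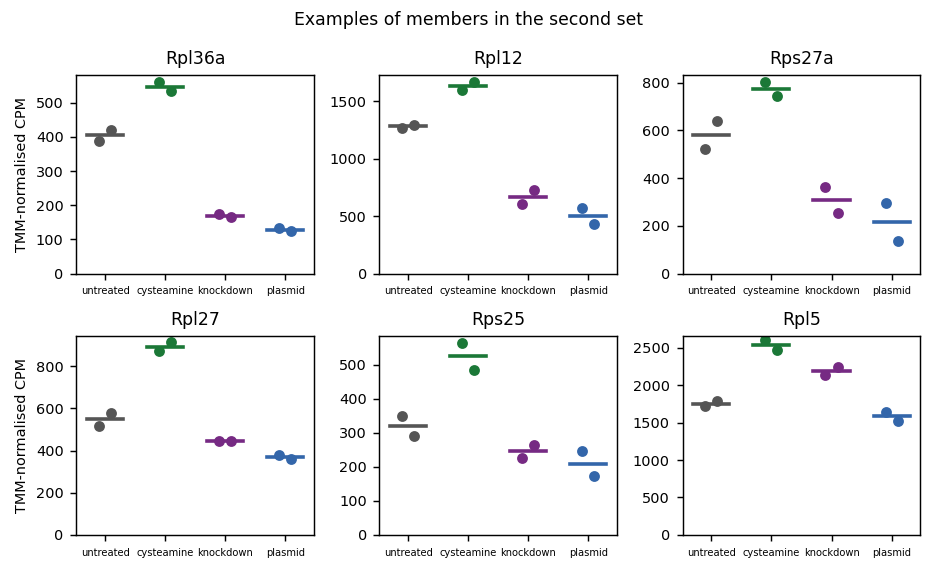
TMM-normalised CPM of 6 members in the 2 libraries of each group of the second set (points) with the group mean (line). All 6 have their highest mean with cysteamine. Rpl36a, Rpl12 and Rps27a passed as lower after knockdown, and Rpl27 and Rps25 as higher with cysteamine. Rpl5 after knockdown lies at 2132 and 2238, above its NT2 libraries.

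Cysteine starvation against NT gave 42 of 50 members above 0, against 50.8% of all transcripts, and no member that passed (0.0% of all transcripts passed). The median log2 fold change was 0.57 against 0.01 over all transcripts, with a range from -0.65 to 1.37, and 8 members had an unadjusted p under 0.05, as did 230 of all 1399 transcripts; DESeq2 also called 0 members. In 28 members both starved libraries exceeded both NT libraries, which 24.5% of all transcripts did. Rpl7a was at 859.5 and 391.9 in NT and at 1304 and 1202 under starvation (0.82 ± 0.33, adjusted p = 0.225, edgeR). Rpl3 had 716.3 and 97.97 against 1040 and 700.9 (0.74 ± 0.47, adjusted p = 0.439), and its groups overlapped, and Rpl8 had 0.69 ± 0.35. Rps3 (-0.46 ± 0.36), a protein of the mRNA entry site that also acts in DNA repair, and Rps6 (-0.25 ± 0.36) were the lowest of the members with at least 10 counts on average in both groups.

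The NT libraries lay far apart. Without NT replicate 1 the median was 1.07, and without NT replicate 2 it was 0.36. Against NT2 in place of NT, the same starved libraries had a median of -0.33.

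Full amino acid starvation against NT gave 36 of 50 members above 0, against 57.5% of all transcripts. The members' median was 0.23 against 0.05 over all transcripts. No member passed (0.0% of all transcripts did), and DESeq2 also called 0 members. In edgeR 2 members and 109 of all transcripts had an unadjusted p under 0.05. Both starved libraries exceeded both NT libraries in 9 members, which 16.3% of all transcripts did. Rpl8 was at 608.8 and 293.9 in NT and at 680.6 and 1055 under starvation (0.80 ± 0.39, adjusted p = 0.615, edgeR). Among members with at least 10 counts on average in both groups, Rpl19 (0.55 ± 0.35) and Rps14 (0.45 ± 0.40) followed, and Rpl12 (-0.47 ± 0.43), Rps6 (-0.43 ± 0.43) and Rpl6 (-0.41 ± 0.53) were lowest, with groups that overlapped. Members with fewer counts reached from -0.77 (Rps3, both starved libraries lower) to 1.48 (Rpl27). The median ran from -0.12 (without the starved replicate 2) to 0.86 (without NT replicate 1), so it had no stable sign, and it was -0.65 against NT2.

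Between the starvations, cysteine starvation lay above amino acid starvation in 36 members and in 52.4% of all transcripts. The members' median was 0.33 against 0.05 over all transcripts. No member passed, the smallest adjusted p being 0.0644 for Rpl26, while 15.0% of all transcripts passed. DESeq2 called 0 members as well, and 4 had an unadjusted p under 0.05, as did 402 of all 1399 transcripts. In 20 members both cysteine-starved libraries were the higher ones, as in 25.7% of all transcripts. Rpl6 was at 1188 and 1552 against 544.5 and 747.4 (1.03 ± 0.46, adjusted p = 0.146, edgeR), Rpl12 had 0.92 ± 0.36 and Rpl10a, listed as an isoform annotated for nonsense-mediated decay, 0.63 ± 0.35. Among members with at least 10 counts on average in both groups, Rpl27 (-0.47 ± 0.34), Rps7 (-0.27 ± 0.34) and Rps24 (-0.20 ± 0.37) were lowest and overlapped. Of members with fewer counts, Rpl11 was lowest at -1.10, with both cysteine-starved libraries below. Both starvations share the NT libraries.

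The untreated groups of the 2 sets differed in the members too. NT2 lay above NT in 49 of 50, the exception being Rps3, and in 55.9% of all transcripts. The members' median was 0.92 against 0.15 over all transcripts. By the test 14 rose, where 8.36% of all transcripts did. Both NT2 libraries exceeded both NT libraries in 44 members, as in 37.1% of all transcripts. Rpl41 was at 1039 and 391.9 in NT and at 2403 and 3040 in NT2 (1.74 ± 0.42, adjusted p = 0.00649, edgeR), and Rpl23a at 1003 and 293.9 against 2138 and 2115 (1.46 ± 0.34, adjusted p = 0.00437). Rpl31 had the largest difference, 2.10 ± 0.63, on 3 counts in NT in all. Rps19 (1.62), Rpl28 (1.43), Rpl14 (1.35), Rps14 (1.16) and Rpl35a (1.10) were also called, and Rpl7a, Rpl4, Rpl15 and Rpl5 (0.99, 0.98, 0.98 and 0.89) were the lowest that passed among those named. Fewer than the 14 passed without NT replicate 2 or without either NT2 library, which leaves a group with 1 library. With DESeq2's size factors 6 passed, and the median over all transcripts was 0.03. The set and the culture of the cells cannot be told apart here.

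**Figure D4:**
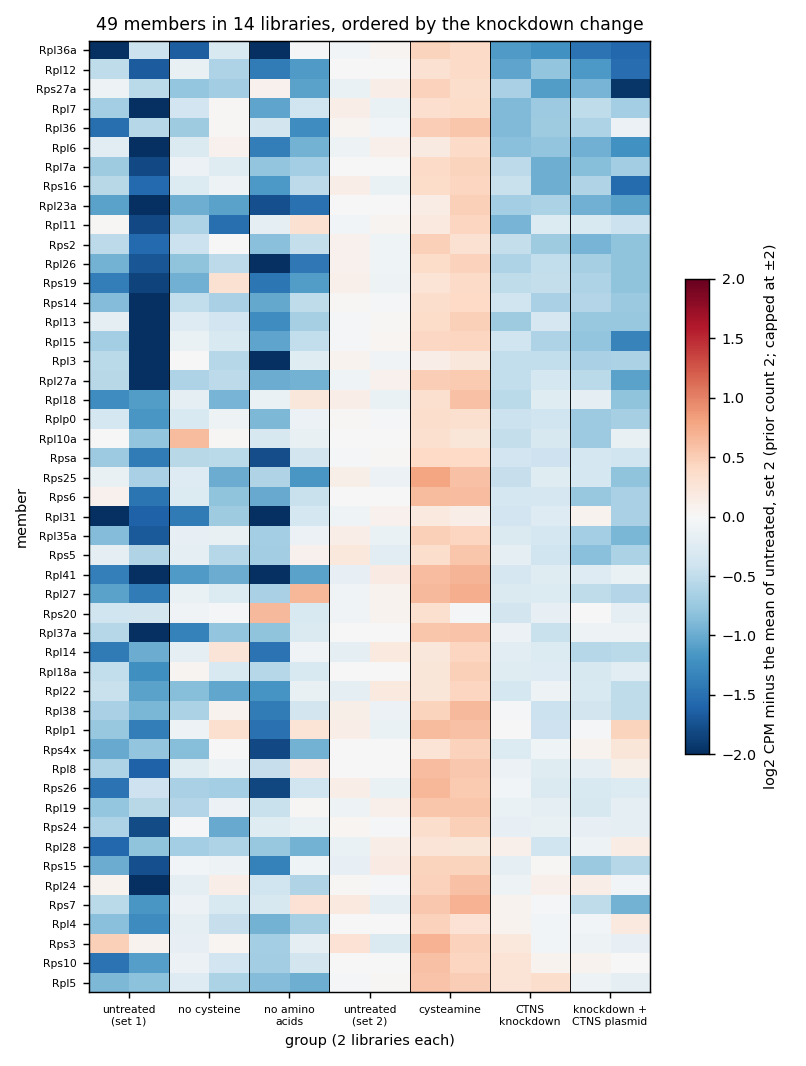
Log2 CPM of 49 of the 50 members (rows, ordered by their change after knockdown) in the 14 libraries (columns, 2 per group), as the difference from the mean of the NT2 libraries, capped at 2 in either direction. Every member's fold change with cysteamine was above 0, and the column of NT replicate 2 rests on 171 member counts.

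Other genes of translation were compared as lists. Of 7 listed elongation factor genes, all lay above NT2 with cysteamine (median 0.39, 0 called) and all below it after knockdown (median -0.22, 1 lower), and 3 were lower with the plasmid (median -0.42): Eef1a1 (-0.85), Eef1b2 (-0.83) and Tpt1 (-1.28). Of 12 other TOP mRNA genes, a list that shares 6 genes with the elongation list, Pabpc1 with the initiation list, Npm1 with the assembly list and Vim with the fibroblast markers, 12 lay above NT2 with cysteamine (2 higher, median 0.46), 11 below it after knockdown (1 higher, 2 lower, median -0.25) and 5 were lower with the plasmid (median -0.58). Rack1, a protein bound to the small subunit, fell by 0.81 after knockdown and by 0.75 with the plasmid on the log2 scale, and Tpt1 fell by 0.76 after knockdown.

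Of 12 listed genes of ribosome assembly, 12 lay above NT2 with cysteamine and 7 rose (median 0.87), among them Ncl (1.19), Mybbp1a (1.11), Nop56 (1.12) and Npm1 (1.07), all nucleolar proteins. After knockdown 10 lay above NT2 and 1, Ncl (0.80), rose (median 0.18), and with the plasmid 2, Ncl (0.79) and Wdr12 (1.36), rose (median 0.09). Between the starvations 4 were higher under cysteine starvation (median 0.74), with Nop56 at 2.63 and Npm1 at 1.33. Of 13 listed initiation factor and poly(A)-binding genes, 4 rose with cysteamine (median 0.49), 3 rose after knockdown (median -0.16; Eif6 0.94, Eif3d 0.53, Eif4b 0.53), and 2 fell with the plasmid (median -0.26; Eif3l -0.99, Pabpc1 -0.74).

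Of 6 listed genes of the mitochondrial ribosome, none fell in the second set; Mrpl13 rose after knockdown (1.63) and with the plasmid (2.22), where Mrps30 also rose (1.41). Of 5 listed genes of the mTOR pathway and the control of translation (Mtor, Larp1, Larp4, Fnip2 and Tsc2), only Fnip2 passed against NT2, at 0.88 after knockdown and 1.01 with the plasmid. Just outside the rule, Rps3a1 had 0.21 with cysteamine (adjusted p = 0.504), -0.56 after knockdown (adjusted p = 0.0538) and -0.68 with the plasmid (adjusted p = 0.0258). Rpl9-ps6 had -0.96 after knockdown (adjusted p = 0.0177) and Fau -0.13 (adjusted p = 0.642).

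Markers of the fibroblast moved in the same libraries. Of 14 fibroblast markers 9 were listed (Col1a1, Col1a2, Col3a1, Col5a1, Col6a1, Fn1, Vim, S100a4 and Postn), none at 0 in any library. Their summed level was 33600 to 36400 CPM in NT2, 20500 to 21200 with cysteamine, 11300 to 11400 after knockdown and 19500 in both plasmid libraries. In the first set it was 16300 to 23800 in NT, 31200 to 34500 under cysteine starvation and 17000 to 25000 under amino acid starvation. Against NT2, 3 of 9 were lower with cysteamine, 7 of 9 after knockdown, and 4 lower and 1 higher with the plasmid. Of other cell types' markers, 1 of 6 epithelial (Cdh1), 1 of 6 muscle (Ttn) and 1 of 5 pancreatic genes (Ctrb1) were listed. Ctrb1 was at 11.9 to 14.5 in NT2, 53.4 to 71.2 with cysteamine, 249 to 347 after knockdown and 409 to 427 with the plasmid, and in the first set at 215 to 980 in NT, 33 to 125 under cysteine starvation and 613 to 1490 under amino acid starvation. Ttn was at 99 to 194 in NT2, 218 to 246 with cysteamine, 411 to 459 after knockdown and 569 to 743 with the plasmid, and Cdh1 at 3.96 to 24.2, 8.9 to 26.7, 54.8 to 90.4 and 24.8 to 56.9 in the same order. In NT, cysteine starvation and amino acid starvation, Ttn was at 686 to 716, 231 to 350 and 835 to 1630, and Cdh1 at 143 to 294, 25 to 66 and 176 to 613. Between the starvations all 3 were lower under cysteine starvation by the test, Ctrb1 by a log2 fold change of -3.97, Cdh1 of -2.81 and Ttn of -2.05. The part of these markers, and of the 3 abundant transcripts, in the members' changes was not tested.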

How the data were processed

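Per the labels, polyadenylated RNA was selected on oligo(dT) beads, fragments of 50 to 100 nt were cut from a gel, tailed, ligated and amplified. The authors deposited whole-number counts per transcript, unnormalized, and no molecular identifiers are described. Build GRCm39, STAR 2.7.10a, Bowtie 1.2.3, cutadapt 2.8 and bcl2fastq 2.20.0.422 come from the submitters' processing notes. How reads were counted, on which annotation and with what use of strand is not given in the sources used here. Reads shared with processed pseudogenes, which ribosomal protein genes have in number, could thus be split or misplaced. Every listed transcript has at least 1 count in every library, so transcripts absent from a library are not listed. Of the members, 22 had a lowest count of 1 or 2, close to that limit. The filter may thus raise the levels of such members in shallow libraries, as in NT, and its effect was not tested.

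Symbols came from GENCODE transcripts (vM21), matching 1385 of 1399 IDs. All 14 libraries were fitted with 7 group means in edgeR 4.0.16 (TMM, quasi-likelihood, R 4.3.3), and p-values were adjusted over 1399 transcripts; the fit was tested on simulated data. SE is the log2 fold change over the root of F. Tried as alternatives were DESeq2 1.42.0 and its size factors, a mean count of at least 20, leaving out the 3 abundant transcripts, each set alone, a replicate block, the other untreated group as control, and leaving out each library.

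Members and lists were chosen with earlier results of these data known. Named in each comparison were all called members (of more than 12, the 6 highest and 6 lowest) or, where none passed, the 3 highest and 3 lowest with a mean count of at least 10 in both groups; also the 5 highest and 3 lowest by total counts, Rps6, Rpl3 and Rpsa, and up to 4 called genes per other list. Rpl5, Rps3, Rps10, Rps20, Rpl11 and those above 0 with the plasmid were named after their values were seen. The values of 1 member are not reported here; it stays in the counts and medians.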

Additional observations from a re-analysis of the deposited data

How the results depend on the processing

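The labels give replicate numbers 1 and 2 in each group, but do not say that a number marks a shared culture or day. Same-numbered deviations correlated between -0.214 and 0.287 in the first set. In the second set all pairs of groups correlated positively, from 0.092 to 0.281, and between sets the values ran from -0.0857 to 0.0865. The replicate block was 1 term common to both sets, and a pairing within the second set alone was not tested. With the replicate block the counts of called members were 7 with cysteamine, 9 after knockdown, 21 with the plasmid, 13 for NT2 against NT and 0 elsewhere, all within 1.5 times the unblocked counts. Of the alternatives, 53 member counts stayed within that range, 29 moved and 2 turned direction.

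With only one set fitted, the counts were 30 for cysteamine, 24 for knockdown, 32 for the plasmid and 1 for plasmid against knockdown. DESeq2 gave 17 for cysteamine, 1 for plasmid against knockdown and 8 for NT2 against NT. For NT2 against NT the count was 6 with DESeq2 size factors, 4 at a mean count of at least 20 and 5 without the 3 abundant transcripts. Leaving those 3 out moved the plasmid's median over all transcripts from -0.01 to 0.10. Leaving out 1 library gave 0 to 1 for cysteine starvation, 0 with cysteamine, 2 to 3 after knockdown, 3 to 10 with the plasmid and 3 to 13 for NT2 against NT.

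With the other untreated group as control, the counts were 5 for cysteine starvation, 7 for amino acid starvation, 37 for cysteamine, 3 (reversed) for knockdown and 2 (reversed) for the plasmid. How many of all transcripts passed under that control is not given here, so these counts are not results about the members alone. Between the untreated groups themselves, 117 of all 1399 transcripts were higher in NT2 by the test and 224 lower. The medians under the other control were -0.33, -0.65, 1.37, 0.54 and 0.38. Under that control the sign turned in Rpl8 (-0.18), Rpl3 (-0.23) and Rpl7a (-0.18) under cysteine starvation, and in Rps14 (-0.72), Rpl19 (-0.17) and Rpl8 (-0.07) under amino acid starvation. It turned in Rpl36a (0.67), Rpl7 (0.19), Rpl36 (0.42), Rpl7a (0.25), Rps16 (0.11) and Rpl26 (0.60) after knockdown, and in Rpl36a (0.28), Rpl26 (0.43), Rps15 (0.56), Rps14 (0.49) and Rpl7 (0.43) with the plasmid. The cause was not tested.

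Leaving out 1 library, the medians ran from 0.36 to 1.07 for cysteine starvation, -0.12 to 0.86 for amino acid starvation, 0.11 to 0.64 between the starvations and -0.24 to -0.12 for plasmid against knockdown. Single members then ran from -0.59 to 1.03 (Rps6) for cysteine starvation, -0.75 to 0.44 (Rpl12), -0.81 to 0.85 (Rps6) and -0.91 to 2.75 (Rpl6) for amino acid starvation, and -0.87 to 0.15 (Rps24), -0.88 to 0.48 (Rpl27) and -0.49 to 0.13 (Rps7) between the starvations. Where a group was left with 1 library, that library was taken to vary like the other groups. The depth of the first set, down to 171 member counts in a library, limits every value there.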
